A study of Mus musculus with 6 samples.

Results

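The genes described here are 33 markers of astrocytes and Bergmann glia, measured in mouse medulloblastoma, a malignant tumour of the cerebellum. They were chosen by symbol from textbook markers, with earlier results of these data known. All 33 of 33 were found among the 52550 genes of the expression files, each as 1 gene. RNA-seq was available for 3 tumours labelled wild type and 3 labelled Eed mutant, and the labels give no mutant allele, Cre driver, tumour-initiating lesion, strain, age or sex. The Eed protein belongs to PRC2, the Polycomb complex whose methylation of histone H3 keeps genes silent. Whether each tumour is from its own animal is not labelled, so the p-values measure the spread between these samples, which may be technical.

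Astrocytes are the glia that take up synaptic glutamate, buffer potassium and water, couple to one another through gap junctions and cover blood vessels with their endfeet. Bergmann glia are the radial astrocytes of the cerebellar cortex, whose fibres guide migrating granule neurons and wrap Purkinje cell synapses. Immature glia and neural progenitors are known for the filament proteins nestin and vimentin, whereas Gfap, aquaporin 4, connexin 30 and aldolase C mark later astrocyte stages. Sonic hedgehog medulloblastomas contain tumour-associated astrocytes, and in a bulk sample fewer cells of a type and less RNA per cell cannot be told apart.

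Depth ranged from 26186236 to 26425111 estimated counts per library, and all 33 members passed the filter on low counts. Markers of granule cell progenitors, the cell type that hedgehog-driven medulloblastoma resembles, were present in every library. Their summed level over 10 genes was 1846 to 2056 TPM (a transcript level scaled by length and by library) in wild type and 1926 to 2076 TPM in the mutants. Single genes did not all follow the sum, and 5 of the 10 were higher and 5 lower in the mutants by fold change. Ccnd1 was at 230, 118 and 202 TPM in wild type and 319, 265 and 283 TPM in the mutants. Hhip was at 14.7, 8.81 and 17.4 TPM in wild type and 34.3, 22.9 and 29.1 TPM in the mutants.

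Of the 33 genes, 6 were called lower in Eed mutant tumours and the filament genes Nes and Vim higher by 1 of the count models used, and the other called none. The 2 models were edgeR and DESeq2, both adjusted over all genes by the Benjamini-Hochberg method at 0.05. edgeR's quasi-likelihood test called 0 members higher and 0 lower, where it also called 0.0% of 19145 genes in either direction, and the lowest adjusted p among the members was 0.13. At an unadjusted p under 0.05 it had 3 members higher, beside 9.29% of all genes, and 9 members lower, beside 8.78% of all genes. DESeq2 called 2 members higher (6.06%), beside 2.96% of 17679 genes, and 6 lower (18.2%), beside 2.26%. The words rose and fell are used below for genes that passed DESeq2, and none of them passed edgeR.

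The genes that fell in DESeq2 were Ntsr2, Gpr37l1, Gjb6, Aldoc, Acsbg1 and Fam107a, and those that rose were Nes and Vim. CPM here is counts scaled to library size times the TMM normalisation factor of edgeR. In CPM the groups did not overlap for 7 members that were lower, 21.2% beside 11.9% of all genes tested. Nor did they overlap for 2 that were higher, 6.06% beside 13.1%. The median log2 fold change, mutant minus wild type, was -0.33 over the members and -0.01 over all genes tested, with 23 members below 0 and 10 above. Ntsr2, Gpr37l1, Gjb6 and Vim, 4 members in all, passed DESeq2 with any 1 of the 6 libraries left out. The share of all genes that passed every one of these fits was not counted. Leaving out wild-type replicate 1 gave 4 members that passed lower (12.1%, beside 2.67% of all genes). Leaving out wild-type replicate 2 gave 5 (15.2%, beside 1.13%), and leaving out wild-type replicate 3 gave 12 (36.4%, beside 3.64%). Leaving out mutant replicate 1, 2 or 3 gave 3 each (9.09%), beside 0.333%, 1.69% and 0.593% of all genes. The number that passed higher was 3 without wild-type replicate 1 (9.09%, beside 2.64%) or mutant replicate 2 (beside 2.32%), and 1 without mutant replicate 3 (3.03%, beside 0.923%).

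**Figure D1:**
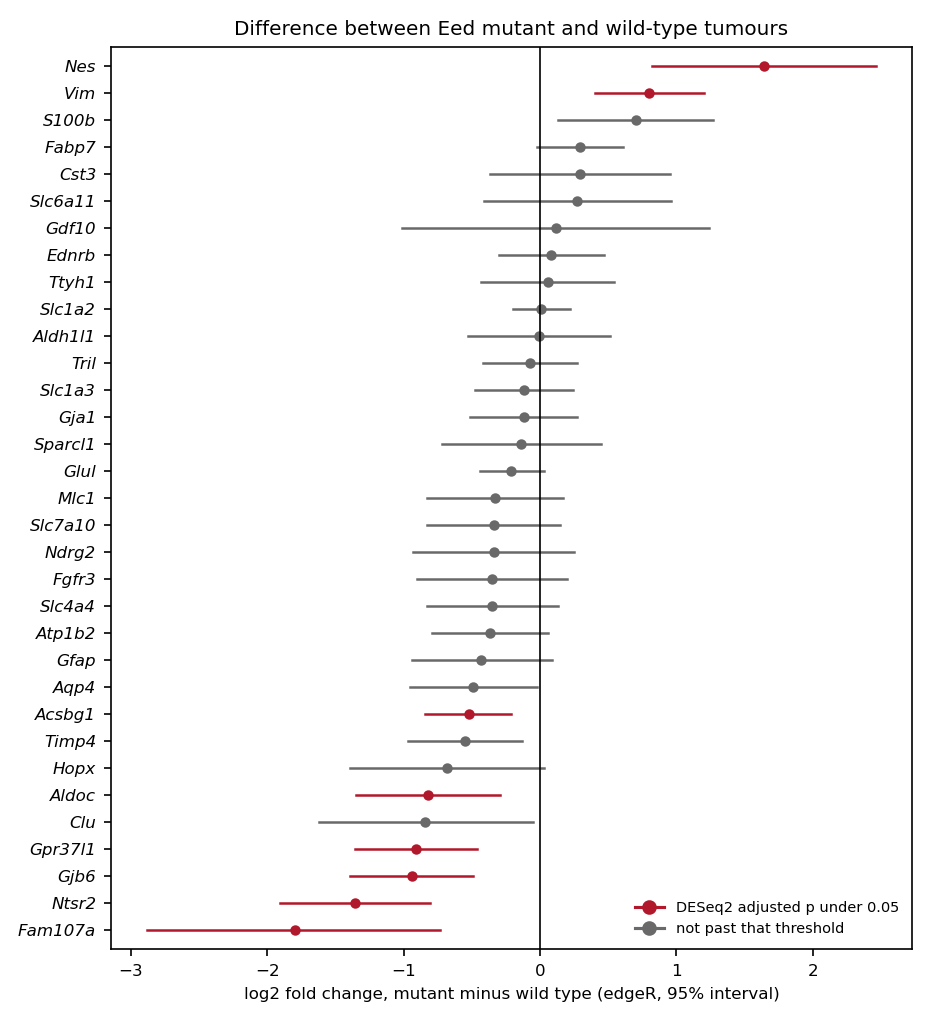
Log2 fold change, mutant minus wild type, of each of the 33 genes in edgeR, with the 95% interval from its quasi-likelihood F statistic as a line. Red genes passed DESeq2 at an adjusted p of 0.05. Nes lies at 1.64 and Fam107a at -1.80, and the intervals of most grey genes include 0.

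Promoter sequence is shown for 1 gene that rose and 2 that fell, since PRC2 is known to sit at promoters rich in the dinucleotide CG. RefSeq windows on GRCm38.p6 were found for 29 of the members (not for Sparcl1, Clu, Atp1b2 and Aqp4), 37 windows in all, and the 250 bases before each start were scanned. The sequences below run 5′ to 3′ on the strand of the gene, stop before the gene as GENCODE M21 draws it, and have each CG in capitals. Nes is at chr3:87970843-87971077 on the plus strand, Gjb6 at chr14:57133612-57133861 and Gpr37l1 at chr1:135167682-135167931, both on the minus strand.
Nes: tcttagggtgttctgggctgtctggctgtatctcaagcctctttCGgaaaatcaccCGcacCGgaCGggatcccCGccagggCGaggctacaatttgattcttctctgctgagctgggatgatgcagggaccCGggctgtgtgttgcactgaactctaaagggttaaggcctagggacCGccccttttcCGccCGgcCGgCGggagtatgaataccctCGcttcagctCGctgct
Gjb6: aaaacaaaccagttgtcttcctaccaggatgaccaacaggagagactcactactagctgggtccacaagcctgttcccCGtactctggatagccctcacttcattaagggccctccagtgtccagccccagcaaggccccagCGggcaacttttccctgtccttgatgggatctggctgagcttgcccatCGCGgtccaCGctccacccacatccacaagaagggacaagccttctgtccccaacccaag
Gpr37l1: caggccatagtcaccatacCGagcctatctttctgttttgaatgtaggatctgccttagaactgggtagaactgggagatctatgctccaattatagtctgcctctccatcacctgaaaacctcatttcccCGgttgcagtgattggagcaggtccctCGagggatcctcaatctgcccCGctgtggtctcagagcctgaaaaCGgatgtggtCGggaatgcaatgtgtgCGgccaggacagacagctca
The stretch shown for Nes holds 14 CG in 235 bases, that of Gjb6 5 in 250 and that of Gpr37l1 7 in 250. Over 250 bases the windows of the other genes that fell held 1 CG (Acsbg1), 4 (Ntsr2), 3 and 5 (Aldoc, at 2 starts) and 5 to 11 (Fam107a, at 3 starts), and that of Vim held 8. The members' windows richest in CG belonged to genes that did not pass DESeq2, with 44 for Slc4a4 (3 at its other start) and 35 for Gdf10. Slc6a11 held 25 and Fgfr3 19 and 24, at 2 starts, whereas Mlc1 held 0, and these did not pass either. The median was 8 CG over the members' windows and 6 over 32851 windows of all genes. Among gliogenic motifs searched on both strands, the nuclear factor I half-site TTGGCA was in 10.8% of the members' windows and 12.3% of all windows. The STAT motif TTCNNNGAA was in 10.8% and 7.02%, the Notch effector motif TGGGAA in 32.4% and 21.6%, and the SOX motif ACAAAG in 5.41% and 16.5%. Windows of the same gene can overlap. The members' SOX matches came from 2 windows of Fam107a that nearly coincide, and both also held the nuclear factor I half-site. These counts describe letters in the windows.

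Among the intermediate filament and progenitor genes, Nes and Vim rose, and Gfap, Fabp7 and Hopx did not pass. Nes, which encodes nestin, the filament of neural progenitors (chromosome 3, 87971078 to 87980451), was at 18.8, 9.39 and 22.7 TPM in wild-type replicates 1 to 3 and 62.4, 34.9 and 57.6 TPM in mutant replicates 1 to 3. All 3 mutants lay above all 3 wild-type tumours, and wild-type replicate 2 was lowest. The means were 17 ± 6.83 and 51.6 ± 14.7 TPM (SD, n = 3), with a log2 fold change of 1.64 (SE 0.348, edgeR adjusted p = 0.144, DESeq2 adjusted p = 0.009). Without mutant replicate 3 the DESeq2 adjusted p was 0.111.

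Vim, which encodes vimentin (chromosome 2, 13573927 to 13582826), was at 278, 216 and 275 TPM in wild type and 453, 336 and 526 TPM in the mutants. The groups did not overlap, and mutant replicate 2 was the lowest mutant for Vim as for Nes. The log2 fold change was 0.80 (SE 0.169, edgeR adjusted p = 0.144, DESeq2 adjusted p = 0.000579), and the DESeq2 adjusted p stayed at or below 0.0382 with any 1 library left out. Gfap, the filament of mature and reactive astrocytes, was at 154, 176 and 98.6 TPM in wild type and 103, 86.2 and 121 TPM in the mutants. The Gfap groups overlapped through wild-type replicate 3, which lay below mutants 1 and 3 (log2 fold change -0.43, interval -0.94 to 0.09, DESeq2 adjusted p = 0.266). Over the 6 fits with 1 library left out, the DESeq2 adjusted p of Gfap was 0.00416 without wild-type replicate 3 and 0.331 to 0.76 in the others.

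Fabp7, the brain fatty acid binding protein of radial and Bergmann glia, was the most abundant of these 5 genes, at 473, 666 and 601 TPM in wild type and 742, 626 and 707 TPM in the mutants. Mutant replicate 2 lay inside the wild-type range (log2 fold change 0.29, interval -0.02 to 0.61, DESeq2 adjusted p = 0.275). Hopx, a homeodomain-only protein found in Bergmann glia, was at 40.6, 75.7 and 35.8 TPM in wild type and 25.6, 38.1 and 29.4 TPM in the mutants. Its groups overlapped as well, with wild-type replicate 2 well above the rest (log2 fold change -0.68, DESeq2 adjusted p = 0.157). Without wild-type replicate 3 Hopx passed (DESeq2 adjusted p = 0.0481), and without wild-type replicate 2 its log2 fold change was -0.26 (adjusted p = 0.674), with adjusted p up to 0.751 over the 6 left-out fits.

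Nestin and vimentin are not restricted to glia. Vessels, mural cells and developing muscle also make them, and some markers of these cells passed the test in the same direction. Of 10 endothelial markers 2 passed DESeq2 higher, where 2.96% of all genes did. Their summed level was 120.3 to 151.9 TPM in wild type and 141.7 to 162.0 TPM in the mutants, which overlap. Of 9 pericyte and smooth muscle markers 3 passed higher, at a summed 76.21 to 93.51 and 104.7 to 130.7 TPM. Skeletal muscle genes, a list of 8 added after the data were seen, passed higher in 8 of 8, at a summed 11.91 to 23.94 and 57.28 to 231.9 TPM. Granule cell progenitor markers passed higher in 2 of 10. No gene of these 4 lists was at 0 in every library, and the part of these cells in the Nes and Vim values was not tested.

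**Figure D2:**
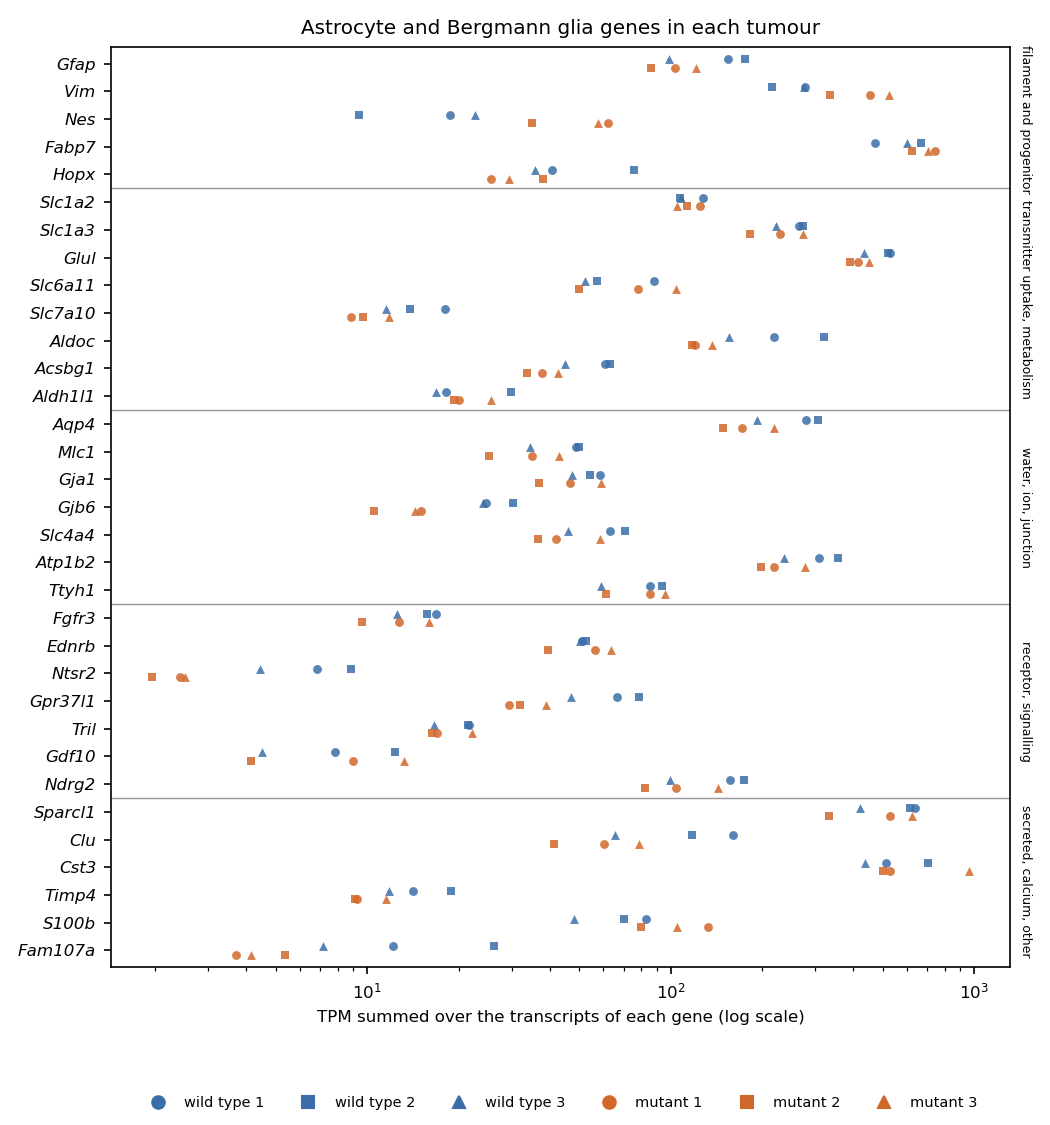
TPM of each of the 33 genes in each tumour on a log scale, with blue points for wild type, orange for mutant and 1 marker shape per replicate number. Nes and Vim are the rows where all 3 orange points lie to the right of all 3 blue ones, and Ntsr2, Gjb6, Gpr37l1 and Aldoc are among those where they lie to the left.

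Among the 8 genes of transmitter uptake and metabolism, Aldoc and Acsbg1 fell and the main glutamate transporters showed no difference beyond the spread. Aldoc, the brain aldolase of astrocytes, which in cerebellum also marks a subset of Purkinje cells (chromosome 11, 78322968 to 78327781), was at 219, 321 and 156 TPM in wild type and 120, 118 and 137 TPM in the mutants. Every mutant lay below every wild-type tumour, and the mutants were close together while the wild types were spread. The means were 232 ± 83.1 and 125 ± 10.6 TPM (SD, n = 3), with a log2 fold change of -0.82 (SE 0.225, edgeR adjusted p = 0.162, DESeq2 adjusted p = 0.00843). The DESeq2 adjusted p was 0.149, 0.0682 and 0.0572 without mutants 1, 2 and 3.

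Acsbg1, an acyl-CoA synthetase of astrocytes (chromosome 9, 54604877 to 54661870), was at 60.9, 63.0 and 45.0 TPM in wild type and 37.6, 33.6 and 42.5 TPM in the mutants. The groups were separated narrowly, between wild-type replicate 3 and mutant replicate 3. The log2 fold change was -0.52 (SE 0.133, DESeq2 adjusted p = 0.0185), and of the 6 fits with 1 library left out it passed in that without wild-type replicate 3 (DESeq2 adjusted p = 3.59e-05) and in no other.

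Slc1a2, the glutamate transporter GLT-1, was at 128, 107 and 108 TPM in wild type and 125, 113 and 105 TPM in the mutants. Its groups overlapped throughout, and the interval of its log2 fold change of 0.01 ran from -0.20 to 0.22, the narrowest of the members. Slc1a3, the transporter GLAST that is abundant in Bergmann glia, was at 265, 272 and 223 TPM in wild type and 230, 182 and 273 TPM in the mutants. Its lowest and highest values were both mutants, replicates 2 and 3 (log2 fold change -0.12, interval -0.48 to 0.24). Glul, the glutamine synthetase that converts the glutamate taken up, was at 530, 521 and 433 TPM in wild type and 414, 391 and 452 TPM in the mutants. Its groups overlapped because mutant replicate 3 lay above wild-type replicate 3 (log2 fold change -0.21, interval -0.44 to 0.03).

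Slc6a11, the GABA transporter GAT-3, was spread in both groups, at 52.2 to 88.3 TPM in wild type and 49.8 to 104 TPM in the mutants. Slc7a10, an alanine, serine and cysteine transporter, was at 11.5 to 18 and 8.85 to 11.8 TPM. Aldh1l1, a folate enzyme used as a general astrocyte marker, had equal means of 21.6 ± 7.10 and 21.6 ± 3.42 TPM (SD, n = 3). None of these 3 genes passed either test, with DESeq2 adjusted p from 0.429 to 0.993.

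Among the 7 genes of water, ion and junction transport, Gjb6 fell, and 5 of the other 6 had a negative log2 fold change without passing. Gjb6, which encodes connexin 30, a gap junction protein of mature astrocytes (chromosome 14, 57123303 to 57133611), was at 24.7, 30.3 and 24.1 TPM in wild type and 15.1, 10.5 and 14.4 TPM in the mutants. The groups were well apart, with the highest mutant below the lowest wild type. The means were 26.4 ± 3.46 and 13.3 ± 2.45 TPM (SD, n = 3), with a log2 fold change of -0.94 (SE 0.191, edgeR adjusted p = 0.142, DESeq2 adjusted p = 0.000417, and at most 0.0113 with any 1 library left out).

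Gja1, which encodes connexin 43, the other main astrocyte connexin, was at 58.4, 54.1 and 47.2 TPM in wild type and 46.7, 36.8 and 59.0 TPM in the mutants, with overlapping groups (log2 fold change -0.12, interval -0.51 to 0.27). The ratio of Gjb6 to Gja1 TPM was 0.422, 0.561 and 0.511 in the wild-type tumours and 0.323, 0.286 and 0.243 in the mutants. The ratio did not overlap between groups, so the levels of the connexin pair differed unequally. This pair and the other ratios given below were picked after the values were seen and have no test.

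Aqp4, the water channel of astrocyte endfeet, was at 280, 305 and 192 TPM in wild type and 172, 149 and 219 TPM in the mutants. Mutant replicate 3 lay above wild-type replicate 3, and the log2 fold change of -0.49 (interval -0.95 to -0.02) did not pass (edgeR adjusted p = 0.266, DESeq2 adjusted p = 0.134). The latter was 0.00466 without wild-type replicate 3 and 0.108 to 0.608 without any other 1 library. Mlc1, a membrane protein that works beside Aqp4 at endfeet, was at 34.4 to 49.9 TPM in wild type and 25.3 to 42.8 TPM in the mutants. Slc4a4, the sodium bicarbonate cotransporter, was at 45.9 to 70.8 and 36.6 to 58.5 TPM. Atp1b2, a beta subunit of the sodium pump, was at 237 to 355 and 199 to 278 TPM. Ttyh1, a tweety-family membrane protein, was at 59.0 to 93.9 and 61.4 to 96.1 TPM. All 4 overlapped between groups, and their log2 fold changes ran from -0.37 for Atp1b2 to 0.06 for Ttyh1.

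Among the 7 receptors and signalling genes, Ntsr2 and Gpr37l1 fell. Ntsr2, a neurotensin receptor found on astrocytes (chromosome 12, 16653382 to 16660227), was at 6.86, 8.84 and 4.43 TPM in wild type and 2.42, 1.95 and 2.51 TPM in the mutants. The mutants were close together and below all wild types. The means were 6.71 ± 2.21 and 2.29 ± 0.30 TPM (SD, n = 3), a log2 fold change of -1.36 (SE 0.232, edgeR adjusted p = 0.13, DESeq2 adjusted p = 3.9e-05, and at most 0.00552 with any 1 library left out).

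Gpr37l1, an orphan receptor of astrocytes and Bergmann glia (chromosome 1, 135160234 to 135167681), was at 66.5, 78.6 and 47.0 TPM in wild type and 29.4, 31.8 and 38.8 TPM in the mutants. Again no mutant reached the lowest wild-type value, that of replicate 3. The log2 fold change was -0.91 (SE 0.192, edgeR adjusted p = 0.144, DESeq2 adjusted p = 0.000527, and at most 0.0411 with any 1 library left out).

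The other 5 genes of this group overlapped and did not pass. Fgfr3, a fibroblast growth factor receptor of astrocyte precursors, was at 12.5 to 16.9 TPM in wild type and 9.61 to 16.0 TPM in the mutants. Ednrb, an endothelin receptor, was at 50.4 to 52.8 and 39.4 to 63.6 TPM, narrow in wild type and spread in the mutants. Tril, an accessory protein of Toll-like receptors, was at 16.6 to 21.7 and 16.4 to 22.2 TPM. Ndrg2, an astrocyte protein linked to growth arrest, was at 99.7 to 174 and 82.5 to 143 TPM. Gdf10, a BMP-family ligand of Bergmann glia, varied most among these 5 genes on the fold scale, at 7.84, 12.4 and 4.49 TPM in wild type and 9.01, 4.14 and 13.2 TPM in the mutants. Its interval was the widest of all 33, from -1.01 to 1.24 on the log2 scale.

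Among the 6 secreted, calcium-binding and other genes, Fam107a fell. Fam107a, an actin-associated protein of astrocytes and radial glia (chromosome 14, 8296274 to 8318023), was at 12.2, 26.2 and 7.14 TPM in wild type and 3.71, 5.36 and 4.13 TPM in the mutants. The mutants were alike and the wild types ranged widely, with replicate 2 highest. The log2 fold change of -1.80 (SE 0.455, edgeR adjusted p = 0.154, DESeq2 adjusted p = 0.0374) was the lowest of the members. It passed DESeq2 without wild-type replicate 2 (adjusted p = 0.00297, log2 fold change -1.13) or 3 (adjusted p = 8.22e-08), and did not pass without any other 1 library, where the highest adjusted p was 0.382.

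Timp4, an inhibitor of matrix metalloproteinases, was at 14.2, 18.9 and 11.8 TPM in wild type and 9.29, 9.10 and 11.5 TPM in the mutants. Its groups did not overlap, by a small gap, and it did not pass (log2 fold change -0.55, edgeR adjusted p = 0.20, DESeq2 adjusted p = 0.0725). Clu, the secreted chaperone clusterin, was at 160, 118 and 65.4 TPM in wild type and 60.4, 41.4 and 78.4 TPM in the mutants. Wild-type replicate 3 lay among the mutants (log2 fold change -0.84, DESeq2 adjusted p = 0.0749).

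S100b, a calcium-binding protein of astrocytes that oligodendrocyte lineage cells also express, was at 83.1, 70.1 and 48.0 TPM in wild type and 133, 79.8 and 105 TPM in the mutants. Mutant replicate 2 lay below wild-type replicate 1 and the groups overlapped (log2 fold change 0.70, interval 0.13 to 1.27, DESeq2 adjusted p = 0.053). Sparcl1, a secreted protein that promotes synapse formation, was at 421 to 636 and 333 to 626 TPM. Cst3, the protease inhibitor cystatin C, was at 438 to 707 TPM in wild type and 501 to 965 TPM in the mutants, with mutant replicate 3 highest. Neither Sparcl1 nor Cst3 passed.

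Reads from genes on the opposite strand could enter some of these values, since the strand setting is not given in the sources used here. Timp4 lies across Syn2 (up to 53.5 TPM), Slc7a10 overlaps Lrp3 (up to 53.2 TPM) and S100b overlaps Dip2a (up to 24.9 TPM). The other overlapping genes that have a value reached at most 5.28 TPM.

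The members also moved together between tumours of the same genotype. Summed over the 33 genes, expression was 4905, 5404 and 3946 TPM in wild type and 4530, 3711 and 5450 TPM in the mutants. The means of 4752 ± 741 and 4564 ± 870 TPM (SD, n = 3) differed by less than either spread. Within wild type, replicate 3 was the lowest of the 3 tumours for 29 of 33 genes. Within the mutants, replicate 2 was the lowest for 28 of 33 genes and replicate 3 the highest for 26. The same order was not counted over all genes, so it may not be particular to the members.

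Summed markers of ependyma and choroid plexus, the lining and secretory epithelium of the ventricles, varied in the same libraries, at 225.7, 178.7 and 75.68 TPM in wild type and 135.6, 27.38 and 297.8 TPM in the mutants. They were lowest in wild-type replicate 3 and in mutant replicate 2, as most members were. None of these 10 markers was at 0 in every library, none passed DESeq2, and 0 passed edgeR. At an unadjusted p under 0.05 in edgeR 1 was lower, beside 8.78% of all genes. Most of this level was Ttr, the choroid plexus transport protein, at 21.0 to 280.0 TPM over the 6 libraries. Other lists given below shared this order. Within each group, wild-type replicate 3 and mutant replicate 2 were also lowest for summed oligodendrocyte precursor markers (264.2 and 241.7 TPM). The same held for summed reactive astrocyte genes (113.8 and 102.9 TPM), and it did not hold for oligodendrocyte markers. The part of ventricular tissue in the members' values was not tested.

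**Figure D3:**
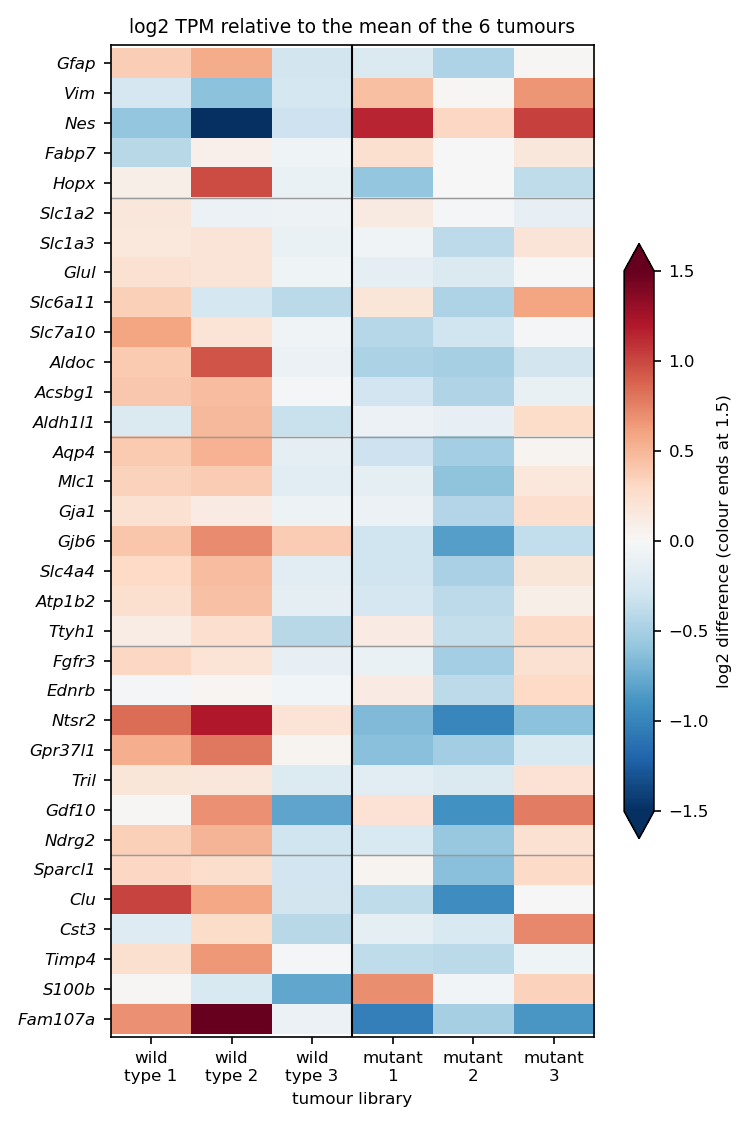
Log2 TPM of each gene in each library relative to the gene's mean over the 6 tumours, red above and blue below, with colour ending at 1.5. Most rows are paler or blue in wild-type replicate 3 and blue in mutant replicate 2, whereas Ntsr2, Gpr37l1, Gjb6, Aldoc and Fam107a are blue in all 3 mutants and Nes is red in all 3.

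Ratios between members were also taken. The ratio of Vim to Gfap TPM was 1.81, 1.23 and 2.79 in the wild-type tumours and 4.41, 3.89 and 4.33 in the mutants, with means of 1.94 ± 0.788 and 4.21 ± 0.277 (SD, n = 3). The ratio of Nes to Gfap was 0.123, 0.0534 and 0.23 in the wild-type tumours and 0.608, 0.405 and 0.475 in the mutants. Both filament ratios were higher in every mutant than in any wild-type tumour, and wild-type replicate 2, the highest wild type for Gfap and the lowest for Nes and Vim, had the lowest of each. The ratio of Aldoc to Slc1a3 was 0.826, 1.18 and 0.702 in the wild-type tumours and 0.52, 0.646 and 0.501 in the mutants, again with no overlap. The ratio of the transporters Slc1a2 to Slc1a3 overlapped, at 0.395 to 0.487 in wild type and 0.386 to 0.623 in the mutants.

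**Figure D4:**
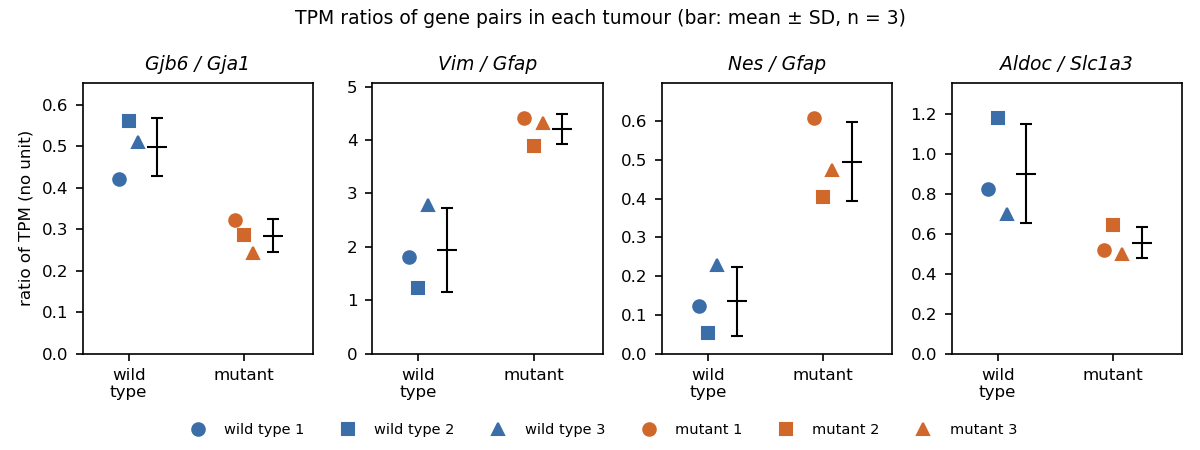
Ratio of TPM between 2 genes in each tumour, with the mean ± SD of 3 tumours in black and each axis starting at 0. Gjb6 to Gja1 and Aldoc to Slc1a3 are lower in all 3 mutants, and Vim to Gfap and Nes to Gfap are higher in all 3.

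Transcripts were compared for the members that the differences turn on. For 16 of the 33 genes, 1 transcript held at least 90% of the gene's counts in every library. Gjb6 counts were shared between the coding transcript Gjb6-201 and Gjb6-204, annotated as a retained intron. Gjb6-201 took 46.9%, 44.0% and 49.5% in the wild-type tumours and 54.3%, 50.4% and 41.4% in the mutants, so the lower Gjb6 level was seen without a change in this share beyond the spread.

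Ntsr2 counts came mostly from Ntsr2-205, also annotated as a retained intron, at 52.7% to 78.5% in wild type and 75.0% to 86.4% in the mutants. The coding transcript Ntsr2-201 alone was at 3.57, 4.85 and 1.24 TPM in wild type and 0.627, 0.427 and 0.809 TPM in the mutants, and the groups did not overlap for it either. Fam107a-201 held 75.5% to 96.8% of Fam107a counts in wild type and 55.6% to 84.9% in the mutants. Vim-201 held 84.1% to 86.8% and 85.6% to 86.3% of Vim counts. Vim-203, annotated as a retained intron of 535 bases, held 12.1% to 13.3% and 11.9% to 13.0%. In TPM it was at 106 to 130 in wild type and 154 to 257 in the mutants, a large part of the Vim level and of its ratio to Gfap. Vim-201 alone was at 147, 107 and 143 TPM in wild type and 236, 177 and 264 TPM in the mutants, without overlap.

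A further 25 astrocyte genes, a list drawn from textbook markers that holds no member, were also counted. Like the members, this list was chosen with earlier results of these data known, so it is not independent support. DESeq2 called 0 higher (beside 2.96% of all genes) and 6 lower (beside 2.26%), and edgeR called 0 and 0. At an unadjusted p under 0.05 edgeR had 12 lower (beside 8.78%) and 0 higher (beside 9.29%). The median log2 fold change of the list was -0.28. Aldh1a1, a retinaldehyde dehydrogenase, was at 64.3, 57.5 and 32.7 TPM in wild type and 17.9, 22.4 and 24.3 TPM in the mutants. Every mutant lay below every wild type (log2 fold change -1.20, edgeR adjusted p = 0.143, DESeq2 adjusted p = 0.000146). Dio2, the deiodinase with which astrocytes activate thyroid hormone, was at 8.54, 6.30 and 9.72 TPM in wild type and 3.39, 3.42 and 5.11 TPM in the mutants, again without overlap (log2 fold change -1.0, DESeq2 adjusted p = 0.000707). Etnppl, a phospholyase of mature astrocytes, fell as well, with a log2 fold change of -1.51 (DESeq2 adjusted p = 0.0184, and up to 0.20 with 1 library left out), as did Htra1, a secreted protease (log2 fold change -0.71, DESeq2 adjusted p = 0.000579). The summed level of the list was 2503 to 3752 TPM in wild type and 2226 to 2667 TPM in the mutants.

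Of 16 further genes of Bergmann and radial glia, 1 passed DESeq2 higher and 1 lower, beside 2.96% and 2.26% of all genes. The median log2 fold change of the 15 that edgeR tested was 0.35. This list shares hedgehog pathway genes with the granule cell progenitor markers counted above, so its median is not of glial genes alone. Prom1, a membrane protein of neural progenitors, rose from 24.4, 16.7 and 21.7 TPM to 31.7, 24.3 and 33.4 TPM, with groups that overlapped in TPM by wild-type replicate 1 and mutant replicate 2 (0.58 on the log2 scale, DESeq2 adjusted p = 0.0295, at most 0.409 with 1 library left out). Dao, the D-amino acid oxidase of Bergmann glia, fell from 1.09, 1.87 and 0.393 TPM to 0.0295, 0.163 and 0.30 TPM (DESeq2 adjusted p = 0.0184). It was too low for the edgeR filter and passed DESeq2 in 0 of the 6 fits with 1 library left out.

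Among 18 regulators of glial fate, 3 passed DESeq2 higher (beside 2.96% of all genes) and 1 lower (beside 2.26%). Sox2, a progenitor transcription factor, was at 31.2, 21.9 and 27.3 TPM in wild type and 47.6, 34.7 and 46.9 TPM in the mutants, with every mutant above every wild type (0.72 on the log2 scale, DESeq2 adjusted p = 0.00375, at most 0.142 with 1 library left out). The receptor Notch1 rose by 1.11 on the log2 scale (DESeq2 adjusted p = 4.22e-06). Rfx4, a factor of radial glia, passed narrowly (DESeq2 adjusted p = 0.0462), and Hey1, a Notch effector, fell by 0.54 on the log2 scale (DESeq2 adjusted p = 0.0359). These last calls were lost in most fits with 1 library left out, Rfx4 passing 1 of 6 and Hey1 passing 2 of 6.

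Of 16 genes of BMP and LIF-family signalling, which drive astrocyte differentiation, 1 passed higher (beside 2.96% of all genes) and 1 lower (beside 2.26%). Lifr, the receptor for leukaemia inhibitory factor, rose by 0.75 on the log2 scale (DESeq2 adjusted p = 4.87e-05), from 4.0, 3.82 and 3.77 TPM to 6.76, 5.41 and 6.83 TPM. The ligand Bmp4 fell by 1.65 on the log2 scale (DESeq2 adjusted p = 0.0471, at most 0.452 with 1 library left out), and by 1.0 without wild-type replicate 2.

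Of 20 genes of reactive astrocytes, 2 passed higher and 1 lower, beside 2.96% and 2.26% of all genes. The median log2 fold change was 0.10 over the 18 tested. Cd109 and Emp1 rose by 1.02 and 1.00 on the log2 scale (DESeq2 adjusted p = 1.38e-05 and 0.00512, the latter at most 0.156 with 1 library left out). Cp, the copper oxidase ceruloplasmin, fell by 0.58 (DESeq2 adjusted p = 0.00611, at most 0.0847 with 1 library left out). The summed level of this list overlapped, at 113.8 to 133.2 TPM in wild type and 102.9 to 130.7 TPM in the mutants.

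Markers of other cells were counted beside the members that fell. Oligodendrocyte markers passed DESeq2 lower in 9 of 12 and higher in 0, beside 2.26% and 2.96% of all genes. Their summed level was 399.5, 1129 and 651.8 TPM in wild type and 245.3, 292.6 and 307.1 TPM in the mutants. Wild-type replicate 2 was the highest library for them, as it was for Aldoc, Ntsr2, Gpr37l1, Gjb6, Acsbg1 and Fam107a. It was the highest of the 6 libraries for 15 of the 33 members, including Gfap, Aqp4 and Hopx, which did not pass. Summed Purkinje cell and granule neuron markers were also highest in wild-type replicate 2, at 897.9 and 1919 TPM. Without that library 5 members (15.2%, beside 1.13% of all genes) and 7 of the 12 oligodendrocyte markers passed DESeq2 lower. Some calls of both were thus seen without it. Aldoc had an adjusted p of 0.0269 there, Ntsr2 of 0.00103, Gpr37l1 of 0.00525 and Gjb6 of 0.0113, and Acsbg1, at 0.10, did not pass DESeq2. Purkinje cell markers passed lower in 2 of 10, at summed levels that overlapped, 432.7 to 897.9 and 350.4 to 508.5 TPM. Oligodendrocyte precursor markers passed lower in 2 of 8, microglial markers in 1 of 10, fibroblast and meningeal markers in 1 of 10 and granule neuron markers in 2 of 11, each with 0 higher. No marker in these 6 lists was at 0 in every library, and their part in the members' values was not tested.

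The deposited files carry a code in their names that several libraries share, and its meaning is not given in the sources used here. No other library shares the code of wild-type replicate 1, so a fit with the code as a term compares the groups without it. This fit also adjusts the other libraries for their codes, so it is not the fit with wild-type replicate 1 left out. The DESeq2 log2 fold change of Nes was 1.95 with the code and 1.72 with that library left out. In that DESeq2 fit 3 members passed higher, beside 2.31% of 15054 genes, and 4 lower, beside 1.97%. Those that passed lower were Ntsr2 (adjusted p = 0.00482), Gpr37l1 (0.0107), Gjb6 (0.0124) and Aldoc (0.017). Those that passed higher were Vim (3.87e-06), Nes (0.0085) and S100b (0.0147), while Acsbg1 (0.144) and Fam107a (0.083) did not pass DESeq2 there.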

How the data were processed

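RNA-seq libraries from 6 mouse medulloblastomas were analysed, 3 wild type and 3 Eed mutant, grouped by their titles. The deposited files hold estimated counts and TPM per transcript, per the file headers. Quantification used kallisto 0.43.1 on GRCm38 or mm10, per the submitters' processing notes. Strand and annotation release are not given in the sources used here. Estimated counts and TPM were summed per gene, and counts were rounded. Libraries held 26186236 to 26425111 counts. At 3 libraries per group, the spread between tumours limits precision.

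edgeR 4.0.16 (TMM, default expression filter, quasi-likelihood F-test, R 4.3.3) tested 19145 genes. DESeq2 1.42.0 gave an adjusted p for 17679. Both used Benjamini-Hochberg adjustment at 0.05. The SE and 95% interval come from the edgeR F statistic. Alternatives included limma 3.58.1 on log2(TPM + 1) and log2(TPM + 0.1). The fits were tested on simulated counts. Gene positions are GENCODE M21 on GRCm38. Members and lists were chosen with earlier results of these data known. All members are named. Of each other list, up to 4 genes that passed DESeq2 or edgeR, lowest DESeq2 adjusted p first, or otherwise the gene of highest mean TPM, were eligible to be named. Values of lists of other cell types are given as sums.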

Additional observations from a re-analysis of the deposited data

How the results depend on the processing

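The counts of members in edgeR were 0 higher and 0 lower under the other scalings, filters and TPM scales, with the file-name code in the model and without any 1 library. DESeq2 gave 2 and 6. The labels do not say whether the replicate numbers pair the tumours. Deviations from the group means had correlations of 0.227, 0.0624 and -0.135 between same-numbered tumours and -0.2945 to 0.1931 between the others. With 3 tumours per group these values cannot decide whether the tumours were paired. With the replicate number as a block, edgeR called 2 members higher, Nes and Vim (beside 0.987% of genes), and 0 lower (beside 0.439%). The same block in DESeq2 gave 3 higher, S100b added (adjusted p = 0.00158), and 6 lower, with Aldoc lost (0.171) and Hopx gained (0.015), beside 3.30% and 3.42% of genes. With 1 library left out, DESeq2 counts ranged from 1 to 3 higher and from 3 to 12 lower, beside 0.652% to 4.16% and 0.333% to 3.64% of genes. Counts of members whose groups did not overlap ranged from 2 to 5 higher and from 7 to 18 lower, beside 15.5% to 20.1% and 14.9% to 19.2% of genes.

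Of the 33 members, 9 changed the sign of the log2 fold change under an alternative, and none of the 9 passed edgeR or DESeq2 with all 6 libraries. Slc1a2 was -0.01 with library size only, and Aldh1l1 was 0.04 on either TPM scale and 0.03 with the replicate block. Ttr, the choroid plexus gene, which is not a member, also changed sign and was 0.11 with the file code. With 1 library left out the ranges were -0.15 to 0.29 for Aldh1l1, -0.03 to 0.09 for Slc1a2, -0.26 to 0.02 for Slc1a3, -0.29 to 0.03 for Gja1, -0.11 to 0.22 for Ttyh1, -0.05 to 0.26 for Ednrb, -0.29 to 0.54 for Gdf10, -0.33 to 0.08 for Sparcl1, -0.07 to 0.51 for Cst3 and -0.95 to 0.50 for Ttr. The cause was not tested.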
